A study of Mus musculus with 14 samples.

Results

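The hippocampus of 189N3 mouse embryos, which carry an extra copy of Dyrk1a, was compared with that of their wild-type littermates in the 6 RNA-seq libraries of this line, 3 of each genotype, out of 14 libraries in the series. The 6 libraries were chosen by their labels. A locus or isoform was tested when its mean over these 6 libraries was at least 10 normalized fragments, which kept 35899 of 59796 loci and 60141 of 105788 isoforms. The 189N3 embryos were heterozygous for a bacterial artificial chromosome that holds the whole mouse Dyrk1a gene with flanking sequence under its own control elements, and the wild-type embryos came from the same litters. The line was bred to C57BL6 mice, so both groups share that background, and as a transgenic line it carries the extra copy at an insertion site that is not described in the sources used here. Hippocampi were dissected at embryonic day 16 to 18, and the age of each embryo is not given. The labels put n = 3 embryos in each genotype, which matches the number of libraries. Some libraries held both Xist and Y-linked RNA, as described below, so a library cannot be taken as 1 embryo. The other 8 libraries, from Dp(16)1Yey mice and their own littermates, serve for values beside Dyrk1a, for tests of a difference between the lines and for 1 fit of all 14 libraries. Dp(16)1Yey mice carry an extra copy of a long stretch of chromosome 16, and that stretch includes Dyrk1a.

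DYRK1A is a protein kinase that activates itself on a tyrosine and then phosphorylates other proteins on serine and threonine. Its known targets include NFAT transcription factors, which it drives out of the nucleus, cyclin D1, which it marks for degradation, LIN52, which assembles the DREAM repressor of cell cycle genes, and proteins of splicing, microtubules and endocytosis. In the developing brain it is known for its effect on the exit of progenitors from the cell cycle and on the growth of dendrites, and its human counterpart lies in the chromosome that is trisomic in Down syndrome.

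The start regions of 3 genes on which the results below turn are shown: that of Dyrk1a itself, because the transgene carries it, and those of Gucy1a3 and Gucy1b3 (now Gucy1a1 and Gucy1b1), neighbours on chromosome 3 whose loci stood higher together. All 3 were matched in RefSeq (GRCm38.p6, the assembly of mm10), are given on the strand of the gene from 5' to 3', and end at or shortly before the annotated start. Capitals mark a GC box (GGGCGG) or a CCAAT box (CCAAT), searched on both strands, so that a match on the other strand reads CCGCCC or ATTGG. The Dyrk1a window is chr16:94569956-94570009 (+), that of Gucy1a1 is chr3:82145790-82145900 (-) and that of Gucy1b1 is chr3:82074712-82074961 (-).
Dyrk1a: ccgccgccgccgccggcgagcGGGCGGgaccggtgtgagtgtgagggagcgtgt
Gucy1a1: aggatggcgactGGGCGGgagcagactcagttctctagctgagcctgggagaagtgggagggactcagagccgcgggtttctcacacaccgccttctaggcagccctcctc
Gucy1b1: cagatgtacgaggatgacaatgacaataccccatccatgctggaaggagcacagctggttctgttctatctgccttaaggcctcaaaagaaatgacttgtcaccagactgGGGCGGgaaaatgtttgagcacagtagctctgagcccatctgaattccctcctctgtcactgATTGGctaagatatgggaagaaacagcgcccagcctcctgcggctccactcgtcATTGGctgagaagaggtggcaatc
The 54 bases of Dyrk1a hold 1 GC box, which 5.4% of the 32851 start regions hold in a window of that length, and have a GC content of 79.6%. The 111 bases of Gucy1a1 also hold 1 GC box (11.7% of windows of that length do), at a GC content of 63.1%. In Gucy1b1, 250 bases hold 1 GC box (32.7% of windows) and 2 CCAAT boxes (33.8% of windows hold at least 1). The shares were counted at the upstream end of each start region. For the shorter windows they therefore lie away from the RefSeq start and are no rate for bases next to a start. A match describes the letters and says nothing of a factor that binds there.

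The 6 libraries held between 20809135 and 29098454 fragments, and 1 fragment was worth between 0.816 and 1.21 normalized units. Replicate numbers are those of the labels and begin at 0. In 189N3 replicate 2, 81.9% of fragments fell in loci with a gene name and 11.5% in unnamed antisense loci, against 66.6% to 73.7% and 17.3% to 22.5% in the other 5 libraries. Across the 14822 named loci tested, this library stood 0.33 (log2) above the mean of the 6 libraries in the median, and the others between -0.19 and 0.02. Xist, the RNA of the inactive X chromosome, and the Y-linked Ddx3y were both present in 4 of the 6 libraries, at 1452 or more and 1458 or more normalized fragments. 189N3 replicate 0 held 43004 of Xist and 0 of Ddx3y, and wild-type replicate 0 held 88.4 of Xist and 2335 of Ddx3y. A single XX or XY embryo would not hold both RNAs in such amounts, and whether the 4 libraries with both hold more than 1 embryo was not tested. The labels give no sex, and its part in the differences below was not tested beyond a fit with Xist as a covariate. Wild-type replicate 1 differed from the other 2 wild-type libraries at the loci beside Dyrk1a, as described with them. The defining genes of hippocampus were present in every library: Prox1 ranged from 373 to 774 normalized fragments, Zbtb20 from 3277 to 6979, Lhx2 from 879 to 1505 and Emx2 from 304 to 428.

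No locus differed between the genotypes after adjustment for the 35899 tests in limma (0%), and the smallest adjusted p was 0.0955. Without adjustment, 672 loci had a p under 0.05 (1.87% of those tested), 296 of them higher (0.825%) and 376 lower (1.05%) in 189N3. Under quantile normalization this split turned to 412 higher and 275 lower. edgeR on the recovered fragments also called 0 loci after adjustment and 691 (1.92%) before it, whereas DESeq2 called 15 (0.0418%) after it. Of the 13 named among these, 11 belong to the skin or blood genes or are Sprr1a, a gene of the epidermal envelope, and the others are the collagen genes Col1a1 and Col1a2. All 3 libraries of one genotype lay outside the range of the other at 1786 loci (4.98%), 713 above (1.99%) and 1073 below (2.99%). Labels without any effect would on average leave 0.10 of loci without overlap and 0.05 at an unadjusted p under 0.05. Both observed shares were lower. The shares of named loci set beside lists below are observed shares and not rates expected by chance. Among the 14822 named loci, 202 had an unadjusted p under 0.05 (1.36%), 82 of them higher (0.553%) and 120 lower (0.81%). The groups did not overlap at 555 named loci (3.74%), with the 189N3 libraries above at 290 (1.96%) and below at 265 (1.79%). These named loci had a median log2 fold change of 0.04, which ranged from -0.10 without 189N3 replicate 2 to 0.15 without 189N3 replicate 1, and was -0.02 with size factors over named loci. The genes below are therefore described by their values, and "higher" and "lower" refer to these libraries. Standard errors (SE) are those of limma on log2(value + 1), a scale that understates the change of low genes.

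**Figure D1:**
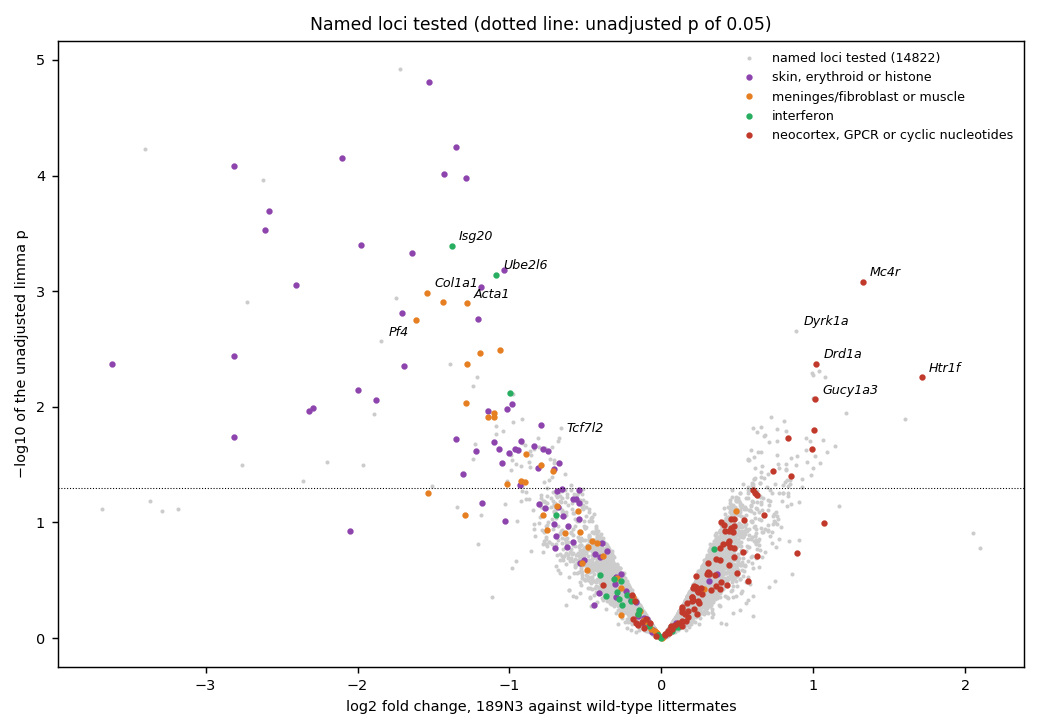
Log2 fold change (x axis) and −log10 of the unadjusted limma p (y axis) of each named locus tested, with members of the coloured gene lists marked and some genes named. The 15 named loci of smallest p among those higher reach log2 fold changes of 0.66 to 1.72, and the 15 among those lower, outside the skin, blood and histone lists, -3.40 to -1.06.

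Dyrk1a (XLOC_020589, chromosome 16 of mm10 from 94570010 to 94695517, + strand) stood at 4248, 3938 and 5877 normalized fragments in the 189N3 libraries and at 2448, 2977 and 2126 in the littermates. Every 189N3 library lay above every wild-type library. The means were 4688 ± 1042 (SD, n = 3) and 2517 ± 430 (SD, n = 3), a ratio of 1.86 and a log2 fold change of 0.89 (SE 0.24), where 3 copies in place of 2 correspond to 0.58. The unadjusted limma p was 0.00219, with an adjusted p of 1.00, and the exact two-sided permutation test gave p = 0.10, the smallest that 3 against 3 libraries allow. Leaving out each library in turn gave log2 fold changes of 0.71 to 1.02.

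The Dyrk1a transcripts are given one by one, and no test compared their changes. The isoform TCONS_00036518, which matches a reference transcript, stood at 1325, 1303 and 1076 estimated fragments in 189N3 and at 252, 658 and 208 in the littermates (log2 fold change 1.91). Its estimated share of the locus was 31.2%, 33.1% and 18.3% against 10.3%, 22.1% and 9.78%, so the shares overlapped. The most abundant isoform of Dyrk1a, TCONS_00036513, which differs from a reference transcript in its splicing, stood at 2385, 2015 and 3353 against 1634, 1852 and 1267, a log2 fold change of 0.69. Both lay above the littermates in all 3 libraries, where the groups did not overlap at 6.75% of all isoforms tested, with 189N3 above at 3.08% and below at 3.66%, and for TCONS_00036518 wild-type replicate 1 was the highest of the littermates. The other 2 isoforms tested overlapped between the genotypes, TCONS_00036519 with a log2 fold change of 0.59 and TCONS_00036514 with 0.43, and none of the Dyrk1a isoforms passed the adjusted limma test (adjusted p = 1.00). Isoform values are the authors' estimates of how fragments divide among overlapping transcripts, so no counting interval applies to them.

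Genes on either side of Dyrk1a were near their littermates' level. Of 11 neighbours listed, Dyrk1a included, 8 were tested, and Sim2, Ripply3 and Kcnj15 were not. Ttc3, a ubiquitin ligase, had a log2 fold change of 0.01 (SE 0.22), Dscr3 (now Vps26c), a subunit of an endosomal sorting complex, -0.12 (SE 0.24), and the potassium channel gene Kcnj6 -0.05 (SE 0.33). Pigp and Hlcs, on the near side, gave -0.17 and 0.09, and the ETS transcription factor genes Ets2 and Erg 0.30 and -0.25. All 7 neighbours overlapped between the genotypes.

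The smallest p-value over all loci was that of XLOC_021655, 1 of several unnamed loci that are numbered between Dscr3 and Kcnj6, the named genes that flank Dyrk1a on the opposite strand; locus numbers of named genes follow their position, and the unnamed loci have no coordinates in the tables used here. It stood at 43.1, 27.7 and 14.5 normalized fragments in 189N3 and at 0, 1.80 and 0 in the littermates (adjusted p = 0.0955 in limma). This locus passed the filter on the mean only through the 189N3 libraries. XLOC_021661 stood at 125, 118 and 56.0 against 6.93, 22.6 and 2.42. XLOC_021663, which passed the filter in the same way as XLOC_021655, stood at 60.9, 62.8 and 37.4 against 0, 17.1 and 0. In each of these the 189N3 libraries lay apart from the littermates, and wild-type replicate 1 was the highest of the littermates, as it was for Dyrk1a. The highest value of these 3 loci in the 8 libraries of the other line, which also has an extra copy of Dyrk1a, and its littermates was 9.89. Without wild-type replicate 1, 28 loci passed the adjusted limma threshold, 7 of them numbered in this stretch, and the rest were genes of skin, other epithelia and blood, Col1a1, Col1a2, BC116202 and 2 unnamed loci. At each of those 7 the library left out was the highest littermate. The remaining littermates stood below 10 there, so the 7 passed the filter on the mean only through 189N3. These calls are given as values and not as support for a change. The antisense locus XLOC_021658 of the same stretch stood at 5966, 5791 and 3141 against 3270, 2897 and 3069, so that 189N3 replicate 2 lay below wild-type replicate 0 and the groups overlapped. Whether reads were counted by strand is not stated, so the values of Dyrk1a and of loci opposite to it may include each other's reads.

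The other kinases of the family did not stand with Dyrk1a. Of 12 DYRK, CLK and HIPK kinase genes tested, 9 were higher and 3 lower, and only Dyrk1a had an unadjusted p under 0.05. Dyrk1b had a log2 fold change of 0.00 (SE 0.29) and Dyrk2 0.22 (SE 0.23). Of 39 genes for substrates and partners of DYRK1A, 27 were higher and 12 lower with 0 in either direction at an unadjusted p under 0.05, and their median was 0.08 (-0.06 without 189N3 replicate 2), beside 0.04 for all named loci. Nfatc4, which encodes an NFAT factor, was the only one of them whose groups did not overlap, at 83.8, 75.9 and 85.1 in 189N3 against 134, 94.8 and 116 (log2 fold change -0.48, SE 0.26, unadjusted limma p = 0.0811, exact permutation p = 0.10). For comparison, 189N3 lay below all littermates at 1.79% of named loci. Ccnd1 (cyclin D1) stood at 596, 649 and 830 against 670, 568 and 586, and Rcan1, a calcineurin regulator read out for NFAT activity, at 743, 455 and 1248 against 712, 865 and 663. Both overlapped between the genotypes. The DREAM complex genes gave 3 higher and 8 lower of 11 (median -0.09; 0.04 without 189N3 replicate 1), the REST and CoREST genes 10 higher of 14 (median 0.05; Rest itself -0.01), and the subunits of the BAF chromatin remodeller 25 higher of 29 (median 0.20; 0.03 without 189N3 replicate 2), with Brd7 (log2 fold change 0.25) alone in not overlapping. None of these 3 lists had a member with an unadjusted p under 0.05. Over named loci, 189N3 lay above all littermates, as it did for Brd7, at 1.96%. The medians of REST and CoREST genes and of NFAT and calcineurin genes (0.01) turned to -0.01 and -0.05 when libraries were scaled on named loci only.

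Receptors for peptides and amines led the named genes that were higher. Mc4r, the melanocortin receptor of appetite control, stood at 232, 166 and 276 normalized fragments in 189N3 and at 60.6, 78.5 and 139 in the littermates (log2 fold change 1.33, SE 0.32, unadjusted limma p = 0.00083, adjusted p = 1.00, exact permutation p = 0.10). Drd1a, the dopamine D1 receptor (Drd1), stood at 243, 202 and 336 against 81.4, 151 and 158 (log2 fold change 1.02, SE 0.30). For both receptors the 189N3 libraries lay above all littermates. Htr1f, a serotonin receptor, stood at 67.7, 34.3 and 41.5 against 5.20, 10.8 and 38.7 (1.72, SE 0.53), and here wild-type replicate 2 overlapped with 189N3. Tshr, the thyrotropin receptor, was low, at 56.7, 31.8 and 56.0 against 19.06, 18.95 and 27.8 (1.08, SE 0.33).

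The whole list of 33 neuromodulator receptors had 30 higher and 3 lower, 4 of them at an unadjusted p under 0.05 (the background for higher named loci is 0.553%), with a median log2 fold change of 0.38. The fourth was Ntsr1, a neurotensin receptor, with 384, 153 and 441 against 105, 190 and 220. Npy1r, for neuropeptide Y, and Cnr1, the cannabinoid receptor, did not overlap but had log2 fold changes of 0.41 and 0.23 (unadjusted limma p = 0.105 and 0.293, exact permutation p = 0.10 for both). In all, 4 of the 33 receptors lay above all littermates in 189N3, beside 1.96% of named loci. The median of the list rested on 189N3 replicate 2: it was 0.09 without that library and 0.60 without wild-type replicate 1. Relative to the mean of the 6 libraries, the receptors stood at -0.16, -0.01 and 0.89 (log2) in the 189N3 libraries and at -0.40, 0.34 and -0.37 in the littermates, so wild-type replicate 1 lay above 189N3 replicates 0 and 1.

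Both subunits of soluble guanylyl cyclase, the nitric oxide receptor that makes cyclic GMP, were higher. Gucy1a3, the alpha subunit (chromosome 3 from 82092427 to 82145789, - strand), stood at 3699, 1720 and 3892 in 189N3 and at 961, 1509 and 2074 in the littermates (log2 fold change 1.01, SE 0.33, unadjusted limma p = 0.00858, exact permutation p = 0.20). Gucy1b3, the beta subunit (82032006 to 82074689, - strand), stood at 2124, 1293 and 2934 against 804, 1331 and 1626 (0.74, SE 0.32, unadjusted limma p = 0.0361, exact permutation p = 0.30). In both genes 189N3 replicates 0 and 2 lay above all littermates and replicate 1 among them, and the start regions of both are printed above. Without 189N3 replicate 2 the log2 fold changes were 0.80 and 0.46. The list of 36 genes of cyclic nucleotide signalling had 29 higher and 7 lower. Gucy1a3 and Gucy1b3 alone had an unadjusted p under 0.05 (the background for higher named loci is 0.553%). The median of the list was 0.23, which became 0.02 without 189N3 replicate 2. Adcy1, the calcium-stimulated adenylyl cyclase, stood at 6326, 3382 and 8260 against 2976, 4211 and 3900, and Prkg2, a cyclic GMP-dependent kinase, at 19.5, 13.1 and 60.2 against 17.3, 56.9 and 21.8.

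**Figure D2:**
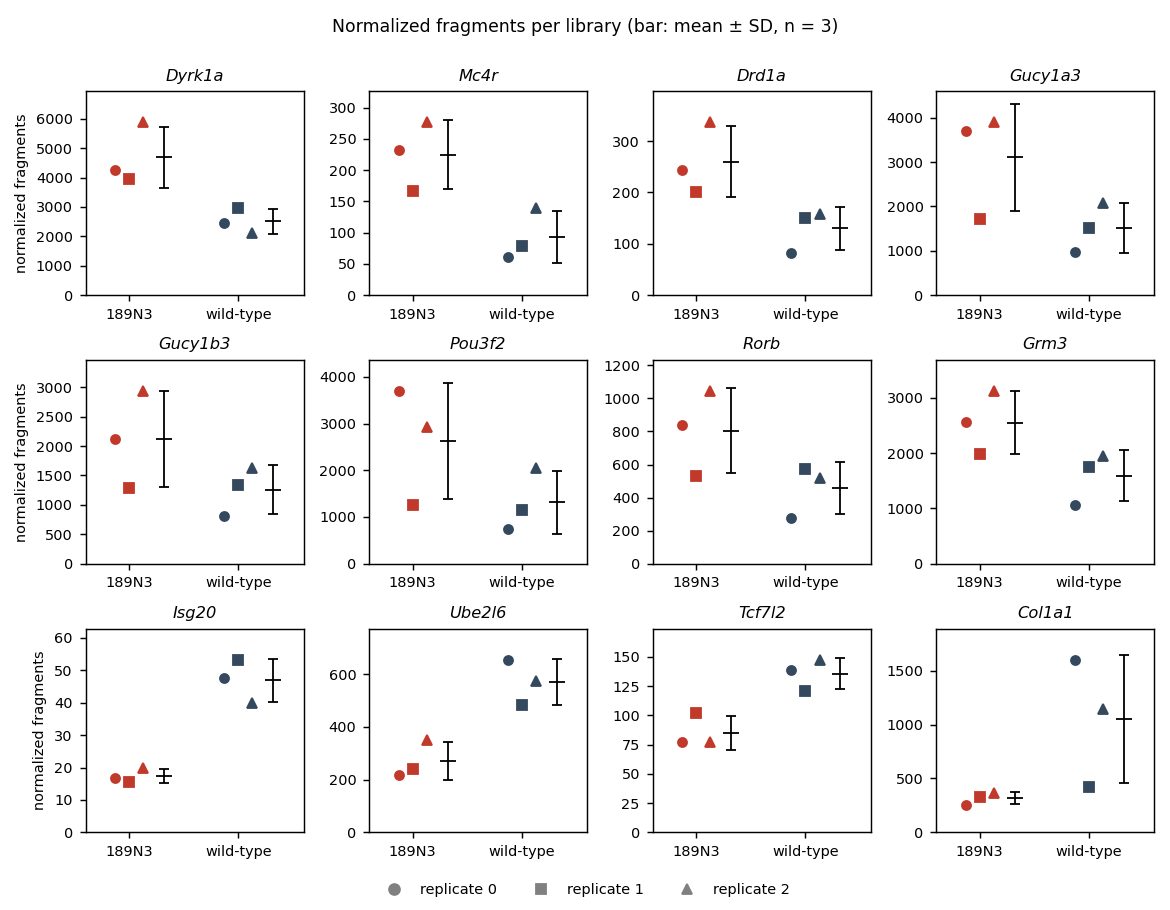
Normalized fragments (y axis, linear from 0) of 12 genes in each library of 189N3 (red) and wild-type littermates (grey), with the mean and SD (n = 3) beside the points and the marker giving the replicate number. All 3 189N3 libraries of Dyrk1a (3938 to 5877) lie above the littermates (2126 to 2977), those of Isg20 (15.5 to 19.7) lie below (39.9 to 53.2), and those of Gucy1a3, Gucy1b3, Pou3f2 and Rorb overlap with the littermates.

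Other named loci of small p among those higher were of varied kinds. Acvr1c encodes ALK7, an activin and Nodal receptor, and stood at 223, 194 and 235 against 133, 148 and 132 (log2 fold change 0.66, SE 0.24; 0.60 to 0.73 with each library left out). Cxxc4, an inhibitor of Wnt signalling, stood at 948, 651 and 1080 against 458, 586 and 553 (0.72, SE 0.25). Lrrc9, BC079612, AB349653 (XLOC_001089), Msx3, Slco4c1, Ccbe1 and Syt6 complete the 15, with log2 fold changes between 0.81 and 1.61. AB349653 also names a second locus, XLOC_050862, with a log2 fold change of -0.25, so that symbol does not identify 1 transcript. The 189N3 libraries lay above all littermates in 11 of the 15, beside 1.96% of named loci. The 15 were chosen by their small p, so this count follows from the choice. Each of the 15 had an adjusted limma p of 1.00.

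Genes of cortical projection neurons were higher as a list. Of 30 neocortex genes tested 29 were higher and 1 lower, 4 at an unadjusted p under 0.05 and all of these higher (the background for higher named loci is 0.553%), and the median was 0.39, which became 0.15 without 189N3 replicate 2. Pou3f2, a POU factor of upper layers (also Brn2), stood at 3694, 1264 and 2926 normalized fragments in 189N3 and at 744, 1146 and 2043 in the littermates (log2 fold change 0.99, SE 0.39), and Rorb, of layer IV, at 842, 531 and 1044 against 278, 575 and 516 (0.83, SE 0.32). In both genes 189N3 replicate 1 lay among the littermates. Fezf2, which specifies deep-layer neurons, stood at 920, 688 and 886 against 1007, 839 and 632 (0.02, SE 0.25), and Hs3st4 at 1199, 465 and 1508 against 435, 651 and 730 (0.67, SE 0.37). The list stood at 0.28, -0.35 and 0.61 (log2, relative to the mean of the 6 libraries) in 189N3 and at -0.36, -0.06 and -0.15 in the littermates, so replicate 1 of 189N3 was close to the lowest littermate. The summed level of its genes ranged from 31839 to 57800 in 189N3 and from 30474 to 36826 in the littermates. Hippocampus genes had a median of 0.13 (22 of 29 higher), with Prox1 at -0.01, Zbtb20 at 0.02, Lhx2 at 0.07 and Emx2 at -0.10. Striatum genes had a median of 0.22 that turned to -0.23 without 189N3 replicate 2; beside Drd1a, Drd2 stood at 10.2, 9.79 and 29.1 against 1.73, 16.2 and 7.25, Adora2a at 21.2, 22.03 and 48.8 against 22.5, 24.4 and 20.5, and Penk at 33.8, 44.9 and 79.9 against 44.2, 80.3 and 56.8. Whether the hippocampi held different amounts of adjoining cortex was not tested, and in bulk tissue fewer cells of a type and less RNA per cell cannot be told apart.

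Neuronal and synaptic lists shared this direction and rested on 189N3 replicate 2. Of 29 genes of neuron maturation 28 were higher (median 0.25), of 41 presynaptic genes 38 (0.25), of 38 postsynaptic genes 31 (0.27), of 42 ion channel genes 37 (0.24), of 23 glutamate receptor genes 19 (0.21), of 44 axon guidance genes 41 (0.21) and of 29 microtubule genes 27 (0.28). Between 0 and 2 members of each had an unadjusted p under 0.05, all of them higher (the background for higher named loci is 0.553%). Without 189N3 replicate 2 the medians were -0.00 for neuron maturation, -0.01 for presynaptic genes, 0.05 for postsynaptic genes, 0.05 for ion channels, 0.03 for glutamate receptors, 0.05 for axon guidance and 0.04 for microtubule genes, beside -0.10 for all named loci. This is the library with the smallest share of antisense fragments, and the part of that share in these medians was not tested. GABA receptors (median 0.15, 13 of 18 higher) had no member with an unadjusted p under 0.05.

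Members with 189N3 above all littermates were 1 of 29 neuron maturation, 0 of 41 presynaptic, 3 of 38 postsynaptic and 4 of 42 ion channel genes. They were 3 of 23 glutamate receptor, 2 of 44 axon guidance and 1 of 29 microtubule genes, beside 1.96% of named loci. Some of these members are given here. Grm3, a metabotropic glutamate receptor, stood at 2556, 1986 and 3122 against 1067, 1746 and 1948 (log2 fold change 0.71, SE 0.27). Plxna4, a semaphorin receptor, stood at 5176, 3684 and 5638 against 2835, 3210 and 3448 (0.59, SE 0.23), and the potassium channel gene Kcnq5 at 624, 463 and 694 against 342, 428 and 446 (0.54, SE 0.25). Grin2b, an NMDA receptor subunit, stood at 3427, 4188 and 4966 against 2949, 3421 and 2950 (0.42, SE 0.23), and Dcx (doublecortin), a microtubule protein of migrating neurons, at 39856, 41584 and 49423 against 37882, 38272 and 34283 (0.24, SE 0.21). For these 5 genes no 189N3 library fell within the littermates' range. Kctd13, an adaptor of a ubiquitin ligase, Mef2c, a transcription factor of excitatory neurons, Sla, Kcnj2 and the heparan sulfate sulfotransferase gene Hs3st2 had unadjusted limma p-values between 0.0195 and 0.0378 and log2 fold changes of 0.66, 0.77, 0.70, 0.82 and 1.07, with overlapping groups. Abundant neuronal genes gave small values: Map2 0.29 (SE 0.22), Mapt 0.37 (SE 0.30) and Gria2 0.17 (SE 0.21). The groups of Gria2 also did not overlap.

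**Figure D3:**
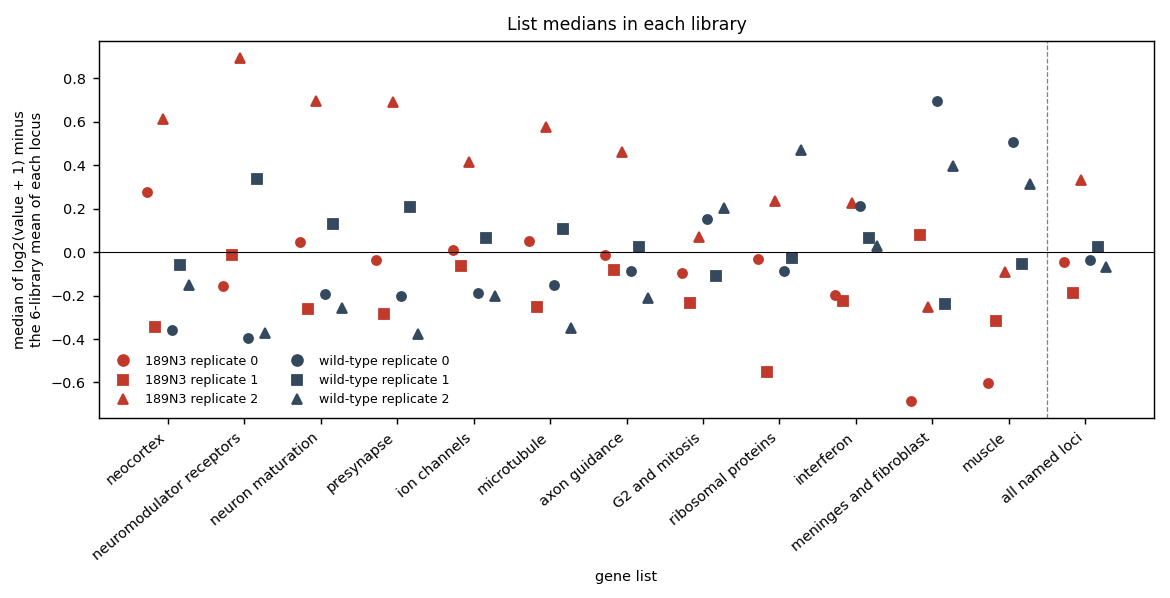
Median over the tested members of 12 gene lists, and of all named loci, of log2(value + 1) minus each locus's mean over the 6 libraries (y axis, log2), in each 189N3 (red) and wild-type (grey) library. 189N3 replicate 2 is the highest library for the neuronal lists (0.61 for neocortex and 0.89 for neuromodulator receptors) and for all named loci (0.33), and by these medians wild-type replicates 0 and 2 are the highest for meninges, fibroblast and muscle genes.

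The 11 genes of oligodendrocyte precursors were all higher (median 0.40; 0.13 without 189N3 replicate 2). Olig2, which specifies this lineage, stood at 111, 91.4 and 173 in 189N3 and at 62.4, 85.7 and 66.5 in the littermates (log2 fold change 0.76, SE 0.29, unadjusted limma p = 0.0196, exact permutation p = 0.10), and Cspg4 (NG2) at 121, 127 and 152 against 119, 85.7 and 90.6 (0.44, SE 0.26). The groups of these 2 of the 11 genes did not overlap, where 189N3 lay above at 1.96% of named loci. Olig1 stood at 152, 77.5 and 273 against 68.4, 135 and 105, and Pdgfra at 649, 896 and 1549 against 778, 1019 and 636, so both overlapped. Astrocyte genes had a median of 0.01 (9 of 16 higher), which turned to -0.05 when libraries were scaled on named loci only. Endothelial genes had a median of 0.17 (17 of 21 higher) with Flt1, a VEGF receptor, at a log2 fold change of 0.60 (unadjusted limma p = 0.0468, exact permutation p = 0.20), whereas Pecam1 and Cldn5 gave -0.01 and 0.04.

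Of the genes of the interferon response, 3 were lower at an unadjusted p under 0.05. Isg20, an RNA exonuclease, stood at 16.9, 15.5 and 19.7 normalized fragments in 189N3 and at 47.6, 53.2 and 39.9 in the littermates (log2 fold change -1.38, SE 0.30), with the smallest adjusted limma p of its list (0.724). Ube2l6, the conjugating enzyme of ISG15, stood at 219, 242 and 352 against 655, 483 and 575 (-1.09, SE 0.26), and Rsad2 (viperin) at 30.5, 52.2 and 59.2 against 126, 67.7 and 90.6 (-0.998, SE 0.32). In these 3 genes every 189N3 library lay below every littermate, and with each library omitted in turn the values were -1.49 to -1.29 for Isg20, -1.29 to -0.95 for Ube2l6 and -1.22 to -0.72 for Rsad2. Of 25 interferon genes tested 19 were lower and 6 higher (the background for lower named loci is 0.81%), with a median of -0.20 that ranged from -0.25 to -0.10 with each library left out. All 189N3 libraries lay below the littermates at 4 of the 25 and above at 1, beside 1.79% and 1.96% of named loci. Blood genes (median -0.74, 13 of 26 lower at an unadjusted p under 0.05) and the meninges genes described below (median -0.55) were lower in the same comparison, and their part in these values was not tested. Isg15, a ubiquitin-like modifier, stood at 23.7, 13.1 and 30.1 against 24.3, 30.7 and 23.0, so its groups overlapped, and Ddx58 (RIG-I) stood at 224, 224 and 249 against 213, 180 and 157, with every 189N3 library above every littermate. Microglia genes had a median of -0.17 (15 of 20 lower), with Csf1r at a log2 fold change of 0.02 and P2ry12 at 0.04, and with Pf4, a chemokine of platelets, at -1.84 and Lyz2 (lysozyme) at -0.71.

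Tcf7l2, the Wnt effector of thalamus and of oligodendrocytes, stood at 77.0, 102 and 76.8 in 189N3 and at 139, 121 and 147 in the littermates (log2 fold change -0.67, SE 0.25, unadjusted limma p = 0.0185, exact permutation p = 0.10). Its groups did not overlap, and the value stayed between -0.81 and -0.60 with each library left out. The 33 Wnt genes as a list were split 16 higher and 17 lower, with a median of -0.00 that turned to 0.02 under median-ratio size factors. Gadd45g, a growth arrest gene of newborn neurons, stood at 26.2, 27.7 and 31.1 against 60.6, 36.1 and 53.2 (-0.77, SE 0.30), also without overlap. The imprinted genes Igf2 and Dlk1 were at -0.71 and -0.80, while the list of 25 imprinted genes had a median of 0.01 (-0.05 when libraries were scaled on named loci only). Igf2 stood at 798, 1042 and 1228 against 2482, 1079 and 1659, so that wild-type replicate 1 lay within the 189N3 range.

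Genes of connective tissue and muscle were lower together. Of 31 genes of meninges and fibroblasts 29 were lower, 11 of them at an unadjusted p under 0.05 (0.81% of named loci were), with a median of -0.55. Of 16 muscle genes 14 were lower, 6 at an unadjusted p under 0.05, with a median of -0.64 that became -0.095 when only loci with a mean of at least 100 were kept. Col1a1, a chain of type I collagen, stood at 257, 331 and 365 in 189N3 and at 1601, 424 and 1141 in the littermates (log2 fold change -1.54, SE 0.38, and -2.10 without wild-type replicate 1), and Col1a2, the other chain, at 385, 548 and 578 against 2168, 660 and 1692 (-1.44, SE 0.36). Acta1, skeletal muscle actin, stood at 29.6, 31.8 and 34.2 against 113, 48.7 and 88.2 (-1.28, SE 0.32), and Myl1, a fast muscle myosin light chain, at 9.31, 9.79 and 12.5 against 45.0, 16.2 and 53.2 (-1.62, SE 0.42). In each of these 4 genes the groups did not overlap and wild-type replicate 1 was the lowest littermate. Col3a1 stood at 236, 644 and 420 against 1157, 461 and 1190, Dcn at 248, 496 and 413 against 580, 371 and 614, and Ttn at 302, 443 and 437 against 533, 353 and 691, and all 3 overlapped.

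The summed level of the meninges and fibroblast genes was 5879, 8957 and 8645 in 189N3 and 14616, 7817 and 11961 in the littermates, and that of the muscle genes 2262, 3683 and 2790 against 3613, 2935 and 3229. Wild-type replicate 0 was the highest for meninges and fibroblast genes and 189N3 replicate 1 for muscle genes. The sum of skin genes was 1147, 1103 and 1860 against 1858, 1550 and 5718, highest in wild-type replicate 2, and that of blood genes 22977, 27796 and 36373 against 64198, 46490 and 67015, with every littermate above every 189N3 library. Wild-type replicate 0 also held the most choroid plexus RNA, with 13477 normalized fragments of Ttr against 259 to 5478 elsewhere, and 189N3 replicate 1 came next. Whether the dissections carried different amounts of meninges, skin, muscle and blood was not tested. Cpa3, a protease of mast cells, stood at 4.23, 4.89 and 4.15 against 19.1, 10.8 and 24.2 (log2 fold change -1.74, SE 0.43). Sprr1a, Krt80 and S100a14, genes of epithelia outside the skin list, had log2 fold changes of -3.40, -2.63 and -2.73 and stood below 5 normalized fragments in every 189N3 library, where 1 fragment is nearly 1 unit.

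Cell cycle and growth genes gave small values, some of which changed sign with a library left out. Of 36 genes of G2 and mitosis 32 were lower (median -0.19; -0.29 to -0.09 with each library left out), and of 39 S phase genes 27 (median -0.12; 0.01 without 189N3 replicate 1), with 0 members of either at an unadjusted p under 0.05. Mki67, the proliferation marker, stood at 6964, 7225 and 7537 in 189N3 and at 9117, 7165 and 8627 in the littermates (log2 fold change -0.19, SE 0.21), Ccnb1 (cyclin B1) gave -0.26 (SE 0.24) and Pcna -0.11 (SE 0.24). The condensin gene Ncapg, Ube2c and the kinesin gene Kif23 did not overlap, with log2 fold changes of -0.33, -0.32 and -0.25. These are 3 of the 36 genes of G2 and mitosis, where 189N3 lay below at 1.79% of named loci. Progenitor genes had a median of -0.10 (20 of 31 lower; 0.01 without 189N3 replicate 1), with Sox2 at -0.23 (SE 0.30) and Eomes, of intermediate progenitors, at -0.11 (SE 0.23). All 49 ribosomal protein genes tested were lower, with a median of -0.22 that ranged from -0.42 to -0.00 with each library left out, the latter without 189N3 replicate 1. None of them had an unadjusted p under 0.05 or groups that did not overlap, and their values may share reads with processed pseudogenes. In 189N3 replicate 1 they stood 0.55 (log2) below the mean of the 6 libraries, and in wild-type replicate 2 0.47 above it. Genes of oxidative phosphorylation had a median of -0.08 (37 of 47 lower), which turned to 0.12 without 189N3 replicate 1 and 0.03 without wild-type replicate 2.

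**Figure D4:**
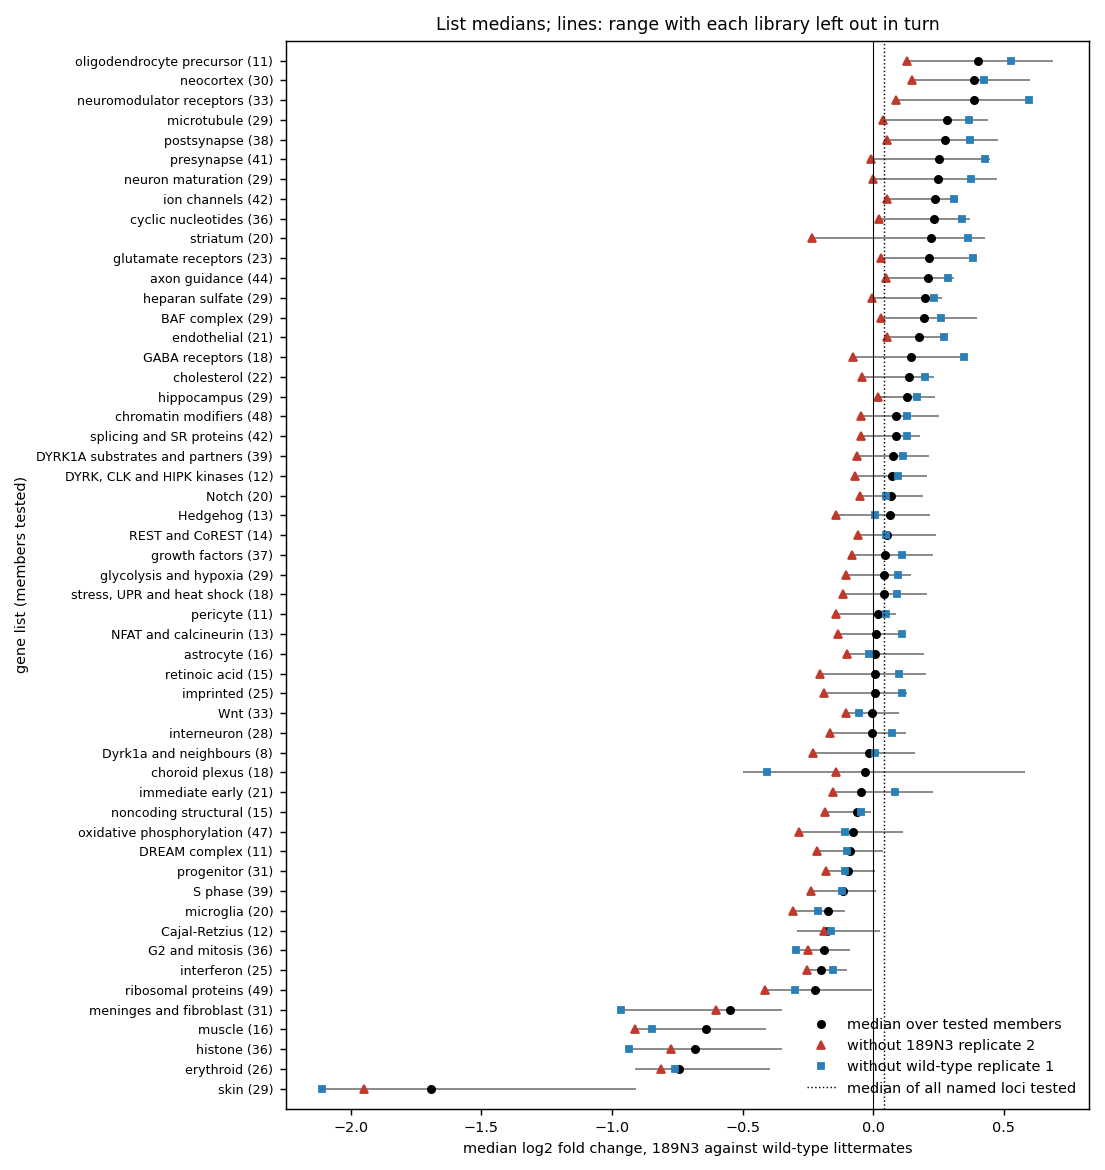
Median log2 fold change of 189N3 against wild-type littermates (x axis) over the tested members of each gene list (y axis, members tested in brackets), with a line for the range when each library is left out in turn. The neuron maturation, presynaptic, postsynaptic, ion channel, glutamate receptor, axon guidance and microtubule lists lie to the right of 0. Without 189N3 replicate 2 (red triangles) they lie near 0, and presynaptic and neuron maturation genes pass to -0.01 and -0.00. Interneuron (-0.01) and Cajal-Retzius (-0.17) genes do not lie to the right, and striatum genes pass to -0.23 without that library. The skin, blood, histone, muscle and meninges lists lie to the left with each library left out.

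The isoform table gave calls where the loci did not. Of 60141 isoforms, 22 passed the adjusted limma threshold (0.0366%), 11 higher and 11 lower, in 22 different named loci, and the smallest adjusted p was 0.00983. None of these 22 loci had an unadjusted p under 0.05 at locus level; their log2 fold changes lay between -0.28 and 0.47. The called isoforms had estimates that were large in 1 genotype and close to 0 in the other: in 13 of the 22 all 3 libraries of the low genotype were below 1, and the median size of the fitted log2 fold change was 6.70. Such a value depends on the 1 added before the logarithm and is no bound. The filter is a mean over all 6 libraries, so isoforms near 0 in 1 genotype passed it only through the other. Their adjusted p-values are given as values and not as support for a change.

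Slc37a3, a sugar phosphate transporter gene, had an isoform (TCONS_00079107) at 296, 274 and 276 estimated fragments in 189N3 and at 1.58, 2.47 and 1.61 in the littermates (adjusted p = 0.00983 in limma). Its share of the locus was 23.9%, 23.4% and 16.2% against 0.110%, 0.181% and 0.148%. Another isoform of the gene, TCONS_00079113, went the other way, with 93.0, 43.5 and 196 against 367, 462 and 201, while the whole locus had a log2 fold change of 0.08. Hecw2, a ubiquitin ligase gene, had an isoform (TCONS_00003893) at 299, 447 and 640 in 189N3 and below 1 in every littermate (adjusted p = 0.00983 in limma), while its locus stood at 1284, 914 and 1661 against 1053, 1191 and 1187. In Manea, a mannosidase gene, an isoform (TCONS_00066131) was below 1 in every 189N3 library and at 405, 379 and 228 in the littermates (adjusted p = 0.00983 in limma), at a log2 fold change of the locus of 0.17.

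In some loci an isoform of each direction was seen. Tlk2, a kinase gene of chromatin assembly, had TCONS_00014667 at 1.65, 0.396 and 0.609 in 189N3 against 150, 105 and 167 (adjusted p = 0.0460 in limma) and TCONS_00014666 at 94.1, 68.5 and 204 against 0.198, 0.719 and 1.01, with a log2 fold change of the locus of -0.00. Hspg2, which encodes perlecan, had TCONS_00065237 at 105, 113 and 133 against 1.11, 0.0312 and 0.0106 and TCONS_00065238 at 1.07, 0.448 and 1.79 against 94.2, 98.3 and 72.5. The former was 99.0%, 99.2% and 87.6% of the locus in 189N3, and the latter 48.8%, 99.96% and 53.1% in the littermates. In 11 of the 22 loci another isoform lay outside the littermates' range in the opposite direction. Of 9724 loci with at least 2 isoforms tested, 12.6% held at least 1 isoform above and 11.8% at least 1 below, and loci with more isoforms have more chances to hold one. Lztfl1, Atp8a2, Ptprf, Champ1, Akap5, Adck4 and Mthfd2l were the other genes among the 10 isoforms of smallest p that were higher, and Tshz3, Zbtb43, Dock1, Ptp4a1, Ocln, Plekha1, Alg13 and Ric8 among the 10 that were lower. The calls depended on the settings: 0 remained at a mean of at least 100, 0 without 189N3 replicate 1, 0 without 189N3 replicate 2 and 0 without wild-type replicate 2.

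**Figure D5:**
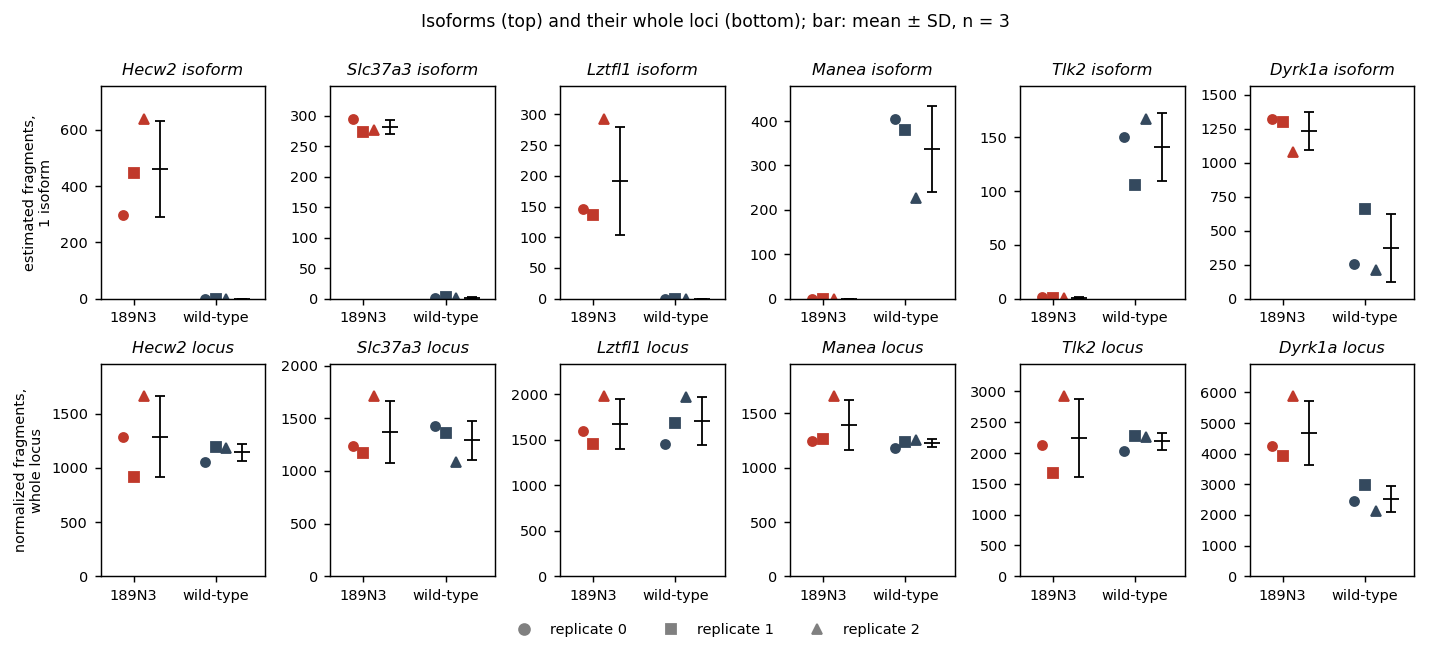
Estimated fragments of 1 isoform (top row, y axis linear from 0) and normalized fragments of its whole locus (bottom row) for 6 genes in each 189N3 (red) and wild-type (grey) library, with mean and SD (n = 3). Isoforms of Hecw2, Slc37a3 and Lztfl1 are close to 0 in the littermates and those of Manea and Tlk2 close to 0 in 189N3, while their loci overlap between the genotypes; the Dyrk1a isoform and locus are higher in 189N3.

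The leading genes were set beside the other line. In Dp(16)1Yey mice against their own littermates, 11 of the 15 leading higher genes had a positive log2 fold change, with a median of 0.21, and 12 of the 15 leading lower genes had a positive one, with a median of 1.03. Mc4r had 1.598 in that line, whereas Isg20 had 0.68, Ube2l6 0.48 and Col1a1 1.98. Pou3f2 and Rorb, which are not among the 15, had 0.86 and 0.88. The share of all named loci positive there is not given. For lists described as higher, medians in that line were -0.65 (neuromodulator receptors), -0.40 (presynaptic), -0.39 (glutamate receptor) and -0.37 (ion channel genes). Others were -0.36 (postsynaptic), -0.31 (axon guidance), -0.26 (neuron maturation) and -0.25 (microtubule genes). Those of oligodendrocyte precursor, cyclic nucleotide and neocortex genes were -0.39, -0.23 and 0.01. Further lists also lay below 0 in that line, such as astrocyte genes (-0.37), and some above, such as G2 and mitosis genes (0.35). The median of all named loci there is not given. These medians therefore cannot tell a change of a list from a shift of named loci in general. No locus passed the adjusted limma test of the difference between the lines (0 loci; smallest adjusted p = 0.921). Unadjusted limma p-values of the difference were 0.81 for Mc4r, 0.00415 for Isg20 and 0.0072 for Ube2l6. Each of these genes was among the 15 leading genes of its direction, chosen by small p. The test of the difference uses again the libraries behind that choice, which favours small p-values. These p-values therefore cannot decide whether the lines differ at these genes.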

How the data were processed

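RNA was extracted from hippocampi of 189N3 embryos and wild-type littermates (3 libraries each), and stranded total RNA libraries were prepared from 1 µg and read as paired ends of 100 bp, although polyA RNA is the molecule named by the labels. The authors aligned reads to mm10 with Bowtie and TopHat, merged Cufflinks assemblies of all samples and estimated fragments per transcript with bias and multi-read correction. Versions are not given in the sources used here. The deposited signal values of the gene table are normalized fragments of each assembled locus on a scale of 1 step per library, since between 99.4% and 99.6% of nonzero values in each library are whole multiples of 1 step (tolerance 0.01 of a fragment). The deposited signal values of the isoform table are the authors' estimates on the same scale. The transcripts absent from the reference annotation that the methods describe as removed are still in the tables and were kept.

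Locus identifiers of the deposited name map differ from those of the tables, so each locus was matched to the map by its isoforms, which named 20315 of 59796 loci; 18524 have coordinates from GENCODE vM21 (GRCm38). Values were compared as log2(value + 1) at a mean of at least 10 in limma 3.58.1 (R 4.3.3) with an intensity trend, without covariates, and Benjamini-Hochberg adjustment was made over all loci or isoforms at 0.05. The study's methods name no model for comparing loci between these groups. The fits were checked on simulated data. Single genes were also tested by exact permutation. For a gene whose groups do not overlap, the exact permutation p is always 0.10, so it adds nothing to the lack of overlap. edgeR 4.0.16 (quasi-likelihood) and DESeq2 1.42.0 on the recovered fragments were alternatives. Groups and replicate numbers came from the labels. No source used here says outright that each library is 1 embryo, and some libraries held both Xist and Y-linked RNA. The p-values therefore measure the spread between libraries.

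The members, gene lists and tests were chosen with earlier results of these data known, and lists are therefore described by counts and medians with no test. Of 1596 entries in 54 lists, 1515 were matched and 1413 tested. Named genes were Dyrk1a and its neighbours, the 15 named loci of smallest p in each direction outside the skin, blood and histone lists, up to 6 members a list with an unadjusted p under 0.05 or without overlap, defining markers, and the 10 isoforms of smallest p in each direction. Genes named with small values, such as Mki67, Map2 and Ccnd1, were added as well-known members after their values were seen. Some genes that the rule names are not reported here. Shares of fragments have 95% Wilson intervals of at most 0.0198 percentage points on either side, which cover counting error only. Changes of loci near a mean of 10 rest on few fragments.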

Additional observations from a re-analysis of the deposited data

How the results depend on the processing

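The counts of calls depended on the processing. Over 18 limma settings, 0 of 109 genes named for a small p or for groups that did not overlap reversed, and 19 passed the adjusted threshold in at least 1 setting. Where groups do not overlap, leaving out a library cannot change the sign, so this 0 follows largely from how the genes were chosen. Of 44 other genes of the text, 26 reversed when a library was left out (ranges Ets2 -0.046 to 0.59, Pdgfra -0.062 to 0.57, Adora2a -0.053 to 0.53, Sox2 -0.51 to 0.13, Isg15 -0.52 to 0.050, Penk -0.58 to 0.030, Pigp -0.40 to 0.054, Eomes -0.19 to 0.016, Dscr3 -0.30 to 0.029, Pcna -0.25 to 0.064, Emx2 -0.18 to 0.059, Hlcs -0.11 to 0.22, Prkg2 -0.77 to 0.35, Lhx2 -0.10 to 0.29, P2ry12 -0.11 to 0.19, Kcnj6 -0.32 to 0.30, Cldn5 -0.25 to 0.38, Fezf2 -0.16 to 0.18, Csf1r -0.12 to 0.21, Zbtb20 -0.32 to 0.25, Ttc3 -0.16 to 0.13, Rcan1 -0.35 to 0.38, Rest -0.14 to 0.12, Pecam1 -0.28 to 0.19, Prox1 -0.29 to 0.24 and Dyrk1b -0.18 to 0.29) and 13 of these in other settings: with size factors over named loci P2ry12 -0.021, Cldn5 -0.019, Fezf2 -0.037, Csf1r -0.040, Zbtb20 -0.038, Ttc3 -0.047, Rcan1 -0.044 and Dyrk1b -0.057, under quantile normalization Kcnj6 0.0096, Fezf2 -0.0083, Zbtb20 -0.039, Ttc3 -0.061 and Rcan1 -0.035, with median-ratio size factors Rest 0.015, Pecam1 0.015 and Prox1 0.017, and with Xist as a covariate Emx2 0.017, Rest 0.11, Pecam1 0.13 and Prox1 0.18. Loci called after adjustment (0) became 3 with median-ratio size factors, 1 with Xist as a covariate and 15 in DESeq2, and with each library left out 0 to 28, of which 2 without wild-type replicate 0 and 28 without wild-type replicate 1. With the replicate number as a block (replicate block) 72 loci and 0 isoforms passed. Deviations of same-numbered libraries had correlations of -0.09, -0.36 and -0.13, and those of differently numbered ones -0.32 to 0.44. With so few libraries these values cannot tell whether the numbers pair the libraries, and shared litters were not tested. Isoforms called (22) became 3 and 14 with pseudocounts of 0.1 and 10, 172 with no filter, 0 at a mean of at least 100, 0 with Xist as a covariate, 7 in 1 fit of all 14 libraries, 121 without the trend, 0 for loci with a symbol only, 7 with size factors over named loci, and 0 to 12 with each library left out; 0 of the 20 isoforms named kept their call in every setting. Loci with an unadjusted p under 0.05 (672) became 1395 with no filter, 178 at a mean of at least 100 and 225 for loci with a symbol only, and 323 to 2423 with each library left out, the highest without 189N3 replicate 1 and the next, 1549, without 189N3 replicate 2. Loci whose groups do not overlap (1786) became 3152, 466 and 555 in those 3 settings, and 3197 to 7570 with fewer libraries to compare. Among list medians, that of blood genes was -0.45 with no filter and -0.91 to -0.40 with each library left out, that of skin genes -0.64 at a mean of at least 100 and -2.11 to -0.91, that of muscle genes -0.095 at a mean of at least 100 and -0.91 to -0.41, and that of Hedgehog genes -0.14 to 0.22. The size factors over named loci were chosen after seeing the data. Beyond the number of loci or libraries each setting leaves, the cause was not tested. Depth limits the low genes: the median SE of the log2 fold change was 0.35 in the lowest of 5 groups of named loci by level and 0.24 in the highest.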

Other observations

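Unnamed loci and gene length gave further values. Of 10101 unnamed antisense loci tested 26.6% were higher in 189N3 (median log2 fold change -0.13), and of 21077 unnamed loci in all 33.4%, with a median of -0.11, against 58.7% of named loci. Without 189N3 replicate 2 both medians turned, to 0.09 each. When named genes with coordinates were divided into 5 groups by the length of the gene, from at most 8.504 kb to over 80.5 kb, the median log2 fold change was -0.01, 0.03, 0.04, 0.07 and 0.10, and the share of genes that were higher went from 46.4% to 70.0%. Without 189N3 replicate 2 the 5 medians were -0.17, -0.13, -0.11, -0.07 and -0.03.

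Of the gene lists not described above, splicing and SR protein genes had a median of 0.09 (31 of 42 higher), chromatin modifier genes 0.09 (37 of 48 higher), cholesterol synthesis genes 0.14 (19 of 22 higher), Notch genes 0.07 (13 of 20 higher), glycolysis and hypoxia genes 0.04 (19 of 29 higher), heparan sulfate genes 0.20 (20 of 29 higher), growth factor genes 0.05 (22 of 37 higher), retinoic acid genes 0.01 (8 of 15 higher), stress genes 0.04 (13 of 18 higher), immediate early genes -0.05 (10 of 21 higher), interneuron genes -0.01 (14 of 28 higher), Cajal-Retzius genes -0.17 (4 of 12 higher), pericyte genes 0.02 (6 of 11 higher), choroid plexus genes -0.03 (7 of 18 higher) and structural noncoding RNA genes -0.06 (5 of 15 higher). Without 189N3 replicate 2 the medians turned to -0.05 for splicing, -0.04 for chromatin modifier, -0.04 for cholesterol, -0.05 for Notch, -0.10 for glycolysis, -0.01 for heparan sulfate, -0.08 for growth factor, -0.20 for retinoic acid, -0.12 for stress and -0.14 for pericyte genes. Those of immediate early, interneuron and Cajal-Retzius genes also changed sign with a library left out, and that of choroid plexus genes ran from -0.50 to 0.58. Histone genes had a median of -0.68, with all 36 lower, 13 of them at an unadjusted p under 0.05.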
